A study of Mus musculus with 17 samples.

Results

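The transcripts described here are the 69 most abundant natural antisense transcripts in nuclear RNA of the mouse prefrontal cortex, each set beside the protein-coding gene that it overlaps on the other strand. They were chosen by their bulk read counts, as the genes annotated as antisense whose mean count over 9 mice was at least 300, so their abundance is the rule and not a finding. They are 69 of 2805 antisense genes in the tables, of which 2515 had a read, and of 36293 genes in all. The mice were C57BL/6 males (C57Bl/6J in the study's methods) that had either been exposed to chronic unpredictable stress (CUS), with 3 varying stressors a day over 12 consecutive days, or been left unstressed as controls in a separate room with daily handling. Nuclei for sNucDrop-seq came from tissue resected 24 h after the final stressor, whereas the bulk mice first went through behavioral tests and, by the study's methods, were taken 24 h after the last of these. The sample labels instead give 24 h after the final stressor for the bulk CUS mice as well. Bulk RNA-seq measured nuclear total RNA of the medial prefrontal cortex (mPFC) at postnatal day 90 in 4 control and 5 CUS mice, and single-nucleus RNA-seq (sNucDrop-seq) measured nuclei of the neocortex at postnatal day 80 in 4 control and 4 CUS mice. The comparison of CUS with control mice asks how repeated stress alters nuclear RNA, and P values here measure the spread between mice. The bulk libraries held 26188825 to 30525015 reads each, and the nuclei kept held 4699542 to 12477099 UMIs per mouse.

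A natural antisense transcript is made from the DNA strand opposite to a protein-coding gene and shares part of its span. Both transcription units can run away from each other from neighbouring starts, run towards each other and overlap at their ends, or lie one inside the other. Some antisense transcripts act in cis, as Kcnq1ot1 and Airn do when they silence genes of an imprinted cluster on the chromosome that makes them, whereas for most of the transcripts named here no function is established.

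Because an antisense gene and its partner share genomic sequence, how reads were assigned to strands decides what their counts mean. The bulk kit keeps the strand of each RNA, but the use of strand in the bulk counting was not stated in the sources used here. Some values are set beside this question, without deciding it. Of 1510 antisense genes that lie wholly inside a partner, only 4 reached the count of 300, among them Gm11266 in Nfib, Gm13601 in Xirp2 and Kcnq1ot1 in Kcnq1. Of the 198 that lie inside a partner with more than 50 reads per kb of span, 40.4% had a mean below 1 read. Across the 1510 pairs, the Spearman correlation between antisense and partner reads per kb was 0.06, a description over genes that share libraries. The count of 300 is also the rule of the list. These values were not adjusted for gene length and have no share of other antisense genes beside them. A small share of reads on the wrong strand was not measured.

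The 69 transcripts held 0.331% of all bulk reads and 69.1% of the reads of all antisense genes. Their mean counts ran from 310.0 to 17004 reads with a median of 635, and their genomic spans from 6.90 to 531 kb with a median of 44.0 kb. The values on either side of the count of 300 were close to each other. Just below it lay 5430402O13Rik (mean 288 reads), 0610040F04Rik (292) and Panct2 (297), and just above it Gm26782 (310.0), Gm2415 (316) and Gm15494 (322). The transcripts came from 18 chromosomes, 32 of them from the plus strand and 37 from the minus strand.

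AC124561.1 and Kcnq1ot1 together took 22.6% of all antisense reads. AC124561.1 (ENSMUSG00000115122) spans 531 kb of chromosome 15 on the plus strand, and its level in CPM (reads scaled to a common library size) was 674, 636, 678 and 530 in the control mice and 631, 631, 632, 493 and 507 in the CUS mice. The groups overlapped, although 3 control mice lay above every CUS mouse (log2 fold change of CUS over control -0.12, false discovery rate (FDR) 0.508, edgeR quasi-likelihood test). Kcnq1ot1, the antisense RNA of the Kcnq1 imprinted cluster, lies on chromosome 7 on the minus strand and stood at 487, 470, 479 and 445 CPM in the control mice and at 502, 524, 518, 482 and 468 CPM in the CUS mice. Its groups also overlapped, and its change was not significant (log2 fold change 0.08, SE 0.06, FDR 0.406). The next levels were those of E130307A14Rik, with a mean of 152 CPM over 9 mice, 4732471J01Rik (143), Gm48765 (125) and B230334C09Rik (104).

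Levels of different genes can be compared only per length. Over the whole span of each gene, B230334C09Rik, which overlaps the end of Lrrc40 by 1302 bp, had 331 reads per kb, the most of the 69. It was followed by Kcnq1ot1 (148 reads per kb), Tug1 (125), A830036E02Rik (117), Gm26944 (86.4) and 4933431E20Rik (85.7). B230334C09Rik varied little among mice, with 101, 109, 106 and 98.2 CPM in the control group and 98.6, 106, 105, 105 and 106 CPM in the CUS group. The median over the 69 transcripts was 17.9 reads per kb, and AC124561.1, first by CPM, had 32.0 reads per kb over its span of 531 kb. The lowest value was 0.963 reads per kb, that of 9530036O11Rik. Exons cover the whole span of B230334C09Rik, 8.93 kb, but 2.42 kb of the span of AC124561.1. Whether reads in introns were counted was not stated, so this order may not hold per kb of exon.

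Of the 69 transcripts, 67 overlapped a protein-coding gene on the other strand and 2 did not (Gm15802 and Gm11767). The 67 had 65 different main partners, the main partner being the one with the longest overlap. Zfhx2 is the main partner of both Zfhx2os and Gm20687, and Gapdhs that of both Tmem147os and Gm26935. In each case the antisense genes overlap on the same strand, where reads may belong to either. By their ends, 34 of the 67 pairs were arranged start to start, 18 end to end, 11 with the partner inside the antisense span and 4 with the antisense gene inside the partner. The starts lay within 1 kb of each other in 13 of these main pairs, among them Gm2164 and Pou3f1, Tug1 and Morc2a, and Emx2os and Emx2. Other partners, with a shorter overlap, are left out of these counts. Some of them start nearer, as Man2c1 does at 600 bp from the start of Man2c1os, whose main partner is Sin3a. Over all 85 overlaps with a protein-coding gene, 43 were start to start. In the GENCODE vM21 annotation, exons of the antisense transcript overlapped exons of the main partner in 51 of the 67 pairs, by a median of 232 bp, and reached coding sequence of the partner in 36. The annotated antisense start lay outside the partner in 29 pairs, in an intron in 21, in an untranslated part of an exon in 9 and in a coding exon in 8.

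Where exons of a pair overlap, the RNAs can be complementary, and in some pairs this includes coding sequence of the partner. Stretches of 3 such pairs are printed from the mm10 genome on the minus strand, 5′ to 3′ as in the antisense RNA, with CG pairs in capitals. They were chosen because Gm13601 differed between the groups and because the other 2 pairs had the smallest P values for unequal change among the pairs described here. In each, the printed stretch is the part of an antisense exon that lies opposite coding sequence. That of Gm13601 at chr2:67516358-67516525 (168 bp) lies opposite Xirp2, which encodes an actin-binding protein of striated muscle. Kcnq1ot1, annotated as 1 unspliced exon, lies opposite coding sequence of Kcnq1, a voltage-gated potassium channel subunit, at chr7:143261256-143261376 (121 bp). That of Gm26691 at chr3:134240399-134240641 (243 bp) lies opposite Cxxc4, which encodes a zinc finger inhibitor of Wnt signalling.
Gm13601: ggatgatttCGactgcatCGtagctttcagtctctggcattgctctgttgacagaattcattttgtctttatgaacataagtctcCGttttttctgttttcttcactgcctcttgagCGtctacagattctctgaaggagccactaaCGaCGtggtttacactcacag
Kcnq1ot1: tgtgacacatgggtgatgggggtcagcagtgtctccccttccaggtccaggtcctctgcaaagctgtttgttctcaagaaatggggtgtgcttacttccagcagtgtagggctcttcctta
Gm26691: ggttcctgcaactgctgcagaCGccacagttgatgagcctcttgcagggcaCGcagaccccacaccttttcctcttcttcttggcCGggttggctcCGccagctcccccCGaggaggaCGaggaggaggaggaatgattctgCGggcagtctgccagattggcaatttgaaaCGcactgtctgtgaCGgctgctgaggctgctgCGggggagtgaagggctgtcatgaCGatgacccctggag

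In 38 of the 67 pairs the antisense transcript had more reads per kb of span than its partner, and the median ratio of antisense to partner was 1.45. The median was 0.694 for start to start pairs, 1.44 for end to end pairs, 10.6 where the partner lay inside the antisense span and 47.6 where the antisense gene lay inside the partner. Kcnq1ot1 had 148 reads per kb and Kcnq1 0.618. Gm13601 had 20.3 reads per kb and Xirp2 0.216. The reverse was seen for 9430041J12Rik (7.75 reads per kb) and Ttyh1 (220.4), and for 4930488L21Rik (10.4) and Gnao1 (78.1). The ratios describe a list that was chosen for abundant antisense transcripts. They are per kb of span, so they also depend on whether introns were counted, and on the choice of the main partner. 4933431E20Rik, for instance, had 85.7 reads per kb, beside 0.163 for its main partner Eps8l3 and 81.5 for its other partner Gstm5.

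The same 69 transcripts were present in the single-nucleus tables, which come from other mice, a larger part of the cortex and capture by oligo-dT beads. The CPM of UMIs summed over nuclei was compared with bulk CPM. The median ratio of bulk to nuclei was 1.13, and 39 transcripts had the higher CPM in bulk. Across the 69, the Spearman correlation of the levels was 0.343. More than 50-fold higher in bulk were 5 of them. AC124561.1 had 601 CPM in bulk and 3.78 CPM in nuclei, Gm15802 83.3 and 0.557, Gm48765 125 and 1.65, Gm16751 35.7 and 0.698, and Gm15941 19.0 and 0.128. The most extreme in the other direction was A830036E02Rik, with 35.1 CPM in bulk and 242 CPM in nuclei. The 69 were chosen on the bulk counts that form the numerator, so the ratios, the counts and the correlation are shaped by that choice and are given as a description. Tissue, age, chemistry and gene counting also differ between the assays, and their parts in these ratios cannot be told apart.

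**Figure D1:**
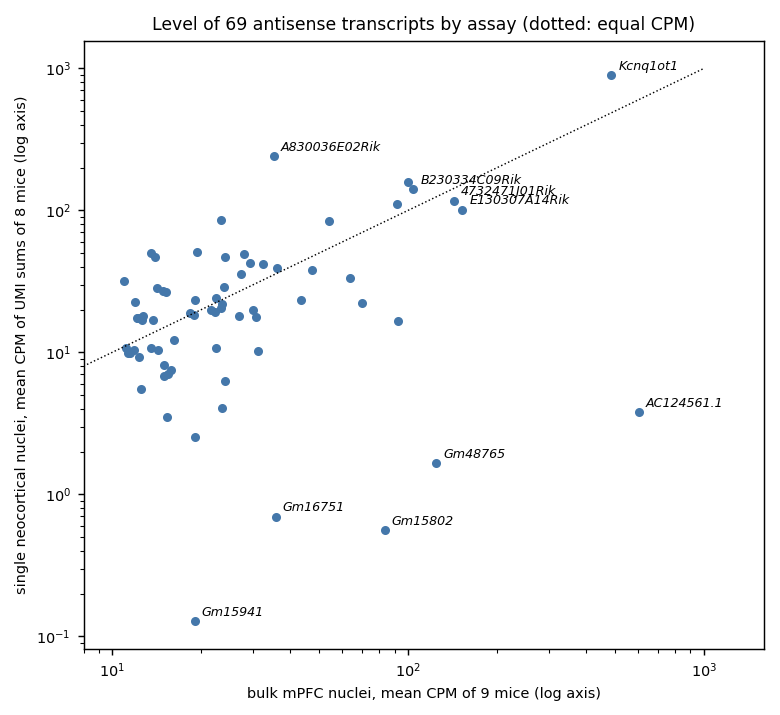
Mean CPM of the 69 antisense transcripts in bulk mPFC nuclei of 9 mice (horizontal, log axis) against mean CPM of UMIs summed over single neocortical nuclei of 8 mice (vertical, log axis). Each point is 1 transcript and the dotted line marks equal CPM. AC124561.1, Gm15802, Gm48765, Gm16751 and Gm15941 sit far below the line and A830036E02Rik lies above it.

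All 69 transcripts could be tested for a change with CUS in bulk. At an FDR of 0.05, 5 of them (7.25%) differed, 3 lower and 2 higher in CUS mice, against 3.29% of the 18394 genes tested (2.13% lower and 1.16% higher). Of the other 716 antisense genes tested, 17 (2.37%) differed. The 69 were chosen for high counts, and small changes are easier to detect at high counts. The part of this choice in the difference between these shares was not tested. Over the 69, the estimates split into 32 lower and 37 higher, with log2 fold changes between -0.54 and 0.57, a median of 0.01 and the same median of 0.01 over all genes tested. The CPM of the groups did not overlap for 8 of the 69, against 8.76% of all genes tested. The number of the 69 past the FDR of 0.05 depended on single mice, being 2 without control mouse 2, CUS mouse 1, CUS mouse 4 or CUS mouse 5, 3 without CUS mouse 3, and 9 without control mouse 3. The share of all genes called moved in the same direction in these fits, to 0.714% without control mouse 2, 1.93% without CUS mouse 1, 0.811% without CUS mouse 4, 0.768% without CUS mouse 5, 1.73% without CUS mouse 3 and 8.1% without control mouse 3. 9530026P05Rik and Gm40578 differed in every one of these fits.

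9530026P05Rik fell in CUS mice. This transcript of chromosome 6 (ENSMUSG00000097462, 92940329 to 93272979, plus strand) runs away from Adamts9, with an overlap of 3164 bp at their starts and no shared exons. Its level was 84.8, 76.3, 65.5 and 80.8 CPM in the control mice and 57.6, 53.4, 51.7, 49.5 and 52.1 CPM in the CUS mice. Every CUS mouse lay below every control mouse, and the mean went from 76.8 ± 8.33 (SD, n = 4) to 52.9 ± 2.99 CPM (SD, n = 5). The log2 fold change was -0.54 (SE 0.07, FDR 0.00553).

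Its partner Adamts9, which encodes a secreted metalloprotease that cleaves proteoglycans, fell as well. Adamts9 stood at 19.0, 20.3, 20.6 and 28.0 CPM in the control mice and at 18.1, 12.7, 12.2, 12.0 and 13.7 CPM in the CUS mice. The groups did not overlap, although CUS mouse 1 lay close to the control mice and control mouse 4 far above the other 3. The log2 fold change was -0.68 (SE 0.14, FDR 0.0213). This is the one pair in which both genes passed the FDR of 0.05.

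Gm40578 (ENSMUSG00000113029, chromosome 12, 111450405 to 111500840, minus strand) also fell. It reaches 4614 bp into the end of Tnfaip2, a gene named for its induction by tumour necrosis factor. Its level was 20.05, 18.1, 19.0 and 14.7 CPM in the control mice and 13.5, 12.1, 13.4, 11.3 and 12.1 CPM in the CUS mice. The groups did not overlap, and the log2 fold change was -0.53 (SE 0.09, FDR 0.0133), from 18.0 ± 2.32 (SD, n = 4) to 12.5 ± 0.966 CPM (SD, n = 5). Tnfaip2 was barely detected, at 0.982, 1.48, 0.859 and 0.855 CPM in the control mice and 1.32, 0.828, 1.21, 0.663 and 0.826 CPM in the CUS mice. Its groups overlapped (log2 fold change -0.11, SE 0.25, FDR 0.843), and the sign of this estimate turned when control mouse 2 (0.11) or CUS mouse 4 (0.0017) was left out.

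Gm11266 (ENSMUSG00000087413, chromosome 4, 82508016 to 82547292, plus strand) was the third to fall, and it lies wholly inside Nfib, a nuclear factor I transcription factor of glial and cortical development. Gm11266 stood at 13.5, 13.9, 14.3 and 13.5 CPM in the control mice and at 10.1, 10.6, 11.9, 11.7 and 10.1 CPM in the CUS mice. The groups did not overlap, and the spread within each was small (log2 fold change -0.34, SE 0.07, FDR 0.029). Nfib, far more abundant, had 525, 529, 543 and 558 CPM in the control mice and 438, 515, 463, 469 and 472 CPM in the CUS mice. Its groups did not overlap either, but its estimate of -0.19 (SE 0.06) missed the threshold at an FDR of 0.0755. With DESeq2 the adjusted P value of Nfib was 0.0104.

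Gm13601 (ENSMUSG00000087467, chromosome 2, 67491044 to 67516525, minus strand) rose in CUS mice. It lies inside Xirp2 and carries the stretch printed above. Its level was 16.3, 12.7, 18.0 and 11.7 CPM in the control mice and 24.0, 20.04, 22.2, 18.7 and 20.7 CPM in the CUS mice. The groups did not overlap, and the mean went from 14.7 ± 2.98 (SD, n = 4) to 21.1 ± 2.03 CPM (SD, n = 5), a log2 fold change of 0.53 (SE 0.12, FDR 0.0363). Xirp2 ranged from 0.395 to 0.784 CPM in the control mice and from 0.355 to 0.895 CPM in the CUS mice, with full overlap (log2 fold change 0.09, SE 0.30, FDR 0.896). The sign of the Xirp2 estimate turned when control mouse 1, control mouse 4 or CUS mouse 4 was left out.

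Gm2164 (ENSMUSG00000098760, chromosome 4, 124528924 to 124657169, minus strand) rose too. It starts 362 bp from the start of Pou3f1, a POU domain transcription factor of cortical projection neurons and Schwann cells. Gm2164 stood at 58.3, 52.8, 71.0 and 38.0 CPM in the control mice and at 85.5, 71.9, 85.3, 83.7 and 80.9 CPM in the CUS mice. The lowest CUS mouse was just above the highest control mouse, and control mouse 4 was the lowest of all (log2 fold change 0.57, SE 0.13, FDR 0.0399). Pou3f1 was measured at 0.944, 0.809, 1.61 and 1.12 CPM in the control mice and 1.39, 1.06, 1.38, 1.33 and 1.62 CPM in the CUS mice. These overlapped (log2 fold change 0.28, SE 0.21, FDR 0.478).

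**Figure D2:**
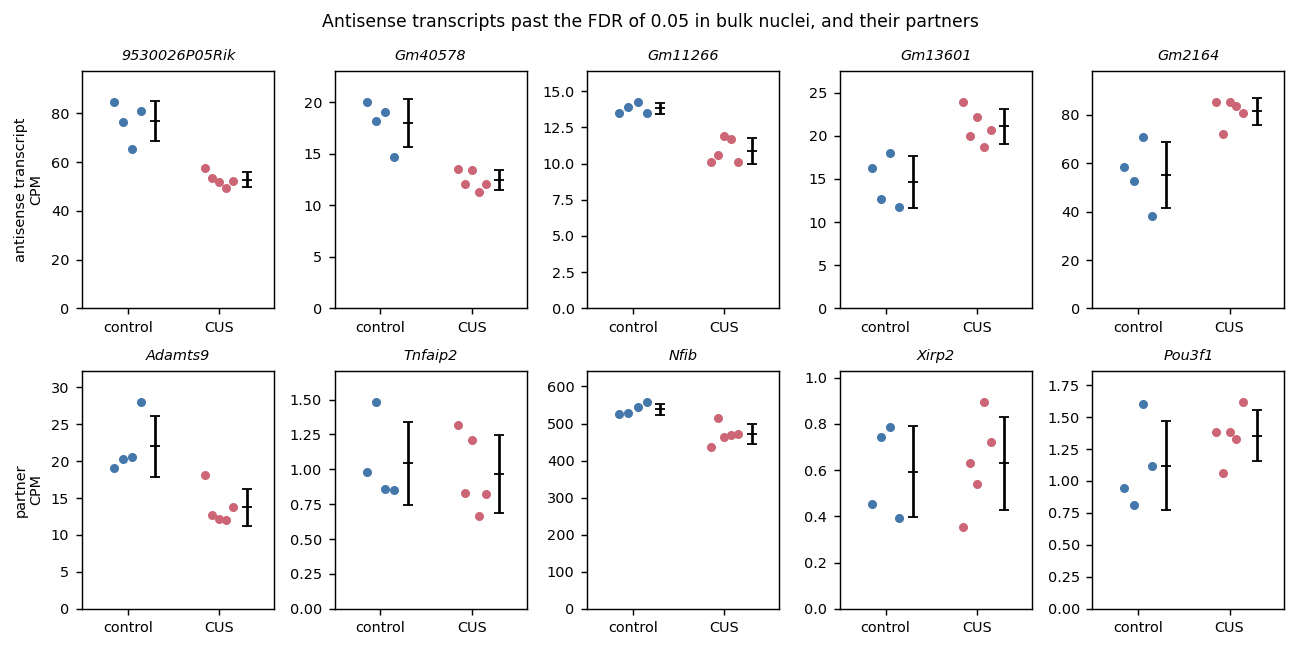
CPM of the 5 antisense transcripts past the FDR of 0.05 (upper row) and of their partners (lower row) in 4 control and 5 CUS mice, with vertical axes from 0. Points are mice and bars give the mean and SD of each group. In the upper row no CUS mouse overlaps a control mouse, whereas Tnfaip2, Xirp2 and Pou3f1 overlap between the groups.

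The start regions of the called transcripts are shown because they can be set beside their changes. RefSeq promoter windows (GRCm38.p6, 250 bases before to 50 bases after the RefSeq start) were found for 43 of the 69 transcripts, and for all called ones but Gm2164. The window of 9530026P05Rik is chr6:92940332-92940631 on the plus strand, that of Gm40578 chr12:111502660-111502959 on the minus strand, that of Gm11266 chr4:82507739-82508038 on the plus strand and that of Gm13601 chr2:67516666-67516965 on the minus strand. Each reads 5′ to 3′ on the strand of the transcript, with CG pairs in capitals.
9530026P05Rik: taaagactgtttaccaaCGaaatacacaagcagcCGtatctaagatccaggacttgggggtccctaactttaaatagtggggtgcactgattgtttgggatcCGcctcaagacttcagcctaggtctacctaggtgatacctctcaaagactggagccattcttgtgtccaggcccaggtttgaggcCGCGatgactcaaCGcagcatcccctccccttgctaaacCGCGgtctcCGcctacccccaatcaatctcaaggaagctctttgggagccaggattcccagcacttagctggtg
Gm40578: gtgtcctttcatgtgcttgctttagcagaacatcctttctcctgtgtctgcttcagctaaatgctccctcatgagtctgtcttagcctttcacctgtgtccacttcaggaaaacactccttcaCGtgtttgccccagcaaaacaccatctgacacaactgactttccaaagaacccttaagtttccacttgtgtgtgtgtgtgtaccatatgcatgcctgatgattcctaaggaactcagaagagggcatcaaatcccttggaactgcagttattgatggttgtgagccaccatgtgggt
Gm11266: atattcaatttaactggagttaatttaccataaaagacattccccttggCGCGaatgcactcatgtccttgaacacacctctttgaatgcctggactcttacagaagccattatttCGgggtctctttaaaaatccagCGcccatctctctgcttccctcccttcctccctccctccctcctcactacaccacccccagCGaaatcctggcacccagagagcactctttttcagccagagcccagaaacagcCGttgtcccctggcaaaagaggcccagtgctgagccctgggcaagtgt
Gm13601: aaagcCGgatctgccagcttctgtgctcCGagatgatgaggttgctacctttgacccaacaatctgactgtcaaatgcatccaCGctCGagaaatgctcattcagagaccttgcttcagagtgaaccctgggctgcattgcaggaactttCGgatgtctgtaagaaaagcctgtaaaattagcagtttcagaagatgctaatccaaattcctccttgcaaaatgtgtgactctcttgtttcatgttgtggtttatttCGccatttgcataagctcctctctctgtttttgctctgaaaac

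The RefSeq start lay 27 bp from the start in the tables for Gm11266, 190 bp for Gm13601, 253 bp for 9530026P05Rik and 1869 bp for Gm40578, so the last window may belong to another transcript form. The windows held 9 CG pairs for 9530026P05Rik, 6 each for Gm11266 and Gm13601 and 1 for Gm40578, against a median of 7 over 32817 promoters. The windows were searched on both strands for 4 motifs: the YY1 motif GCCATNTT, the AP-1 motif TGANTCA, the cAMP response element TGACGTCA and the TATA box TATAAA. The only match was an AP-1 motif 58 bases before the start of 9530026P05Rik. Among all promoters, 6.04% held the YY1 motif, 7.81% the AP-1 motif, 1.79% the cAMP response element and 13.6% the TATA box. A match describes letters in the window and is not a measured binding site.

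The other transcripts without overlap between the groups were 3 that missed the FDR of 0.05, all with higher estimates in CUS mice. A830036E02Rik, which overlaps the start of the keratin gene Krt12, had 34.2, 30.5, 30.2 and 34.0 CPM in the control mice and 41.7, 39.0, 35.7, 35.2 and 35.7 CPM in the CUS mice (log2 fold change 0.22, FDR 0.095). 4732471J01Rik had 121 to 145 CPM in the control mice and 145 to 153 CPM in the CUS mice (0.14, FDR 0.174). Gm15494 had 9.93 to 11.4 CPM in the control mice and 11.7 to 12.9 CPM in the CUS mice (0.19, FDR 0.152). Another transcript, 4930488L21Rik, whose start lies opposite an intron of the G protein gene Gnao1, 3756 bp from the start of Gnao1, had an estimate of -0.31 with an FDR of 0.0662 and passed 0.05 with the likelihood ratio test, which called 7.23% of all genes, and with DESeq2, which called 7.68%. With either tool 6 of the 69 were called. 4930488L21Rik is named here after its values were seen.

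Of the 65 partners, 58 could be tested, and 5 (8.62%) passed the FDR of 0.05, all lower in CUS mice. The background for a lower call was 2.13% of all genes tested. Besides Adamts9, these were Brinp3, Rspo3, Rab10 and Sin3a. Over the 58, 36 estimates were lower, where 48.7% of all genes tested had a lower estimate, and the median log2 fold change was -0.06. The groups did not overlap for 6 of the 58, near the background of 8.76%. The number of partners past the FDR of 0.05 also depended on single mice, being 0 without control mouse 2, CUS mouse 4 or CUS mouse 5, 2 without CUS mouse 3, 3 without control mouse 4 or CUS mouse 1, and 13 without control mouse 3. The shares of all genes called in these fits are those given above for the transcripts, and 2.74% without control mouse 4.

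Brinp3, a neuronal member of the BMP and retinoic acid inducible family and the partner of Gm29514, had 250, 220, 156 and 236 CPM in the control mice and 115, 172, 144, 125 and 122 CPM in the CUS mice. One control mouse lay within the CUS range (log2 fold change -0.67, SE 0.14, FDR 0.0246). Gm29514 ranged from 18.5 to 24.8 CPM in the control mice and from 16.2 to 20.1 CPM in the CUS mice, with overlap (-0.22, FDR 0.195). Rspo3, a secreted enhancer of Wnt signalling and the partner of Gm48159, had 35.8, 38.7, 25.9 and 34.7 CPM in the control mice and 16.7, 23.4, 24.5, 22.6 and 25.9 CPM in the CUS mice. The lowest control mouse and the highest CUS mouse were nearly equal (-0.58, SE 0.13, FDR 0.033). Gm48159 ranged from 8.22 to 16.9 CPM in the control mice and from 8.75 to 11.004 CPM in the CUS mice (-0.49, FDR 0.117).

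Rab10, a small GTPase of membrane traffic, changed little in size but with little spread. It had 105, 108, 105 and 106 CPM in the control mice and 93.6, 90.6, 94.2, 89.6 and 88.4 CPM in the CUS mice, without overlap (log2 fold change -0.22, SE 0.05, FDR 0.027). Its antisense transcript Rab10os, which overlaps its end by 2950 bp, had an estimate of -0.02 (FDR 0.940). Sin3a, the scaffold of a histone deacetylase complex, had 48.3, 49.2, 44.5 and 47.0 CPM in the control mice and 39.2, 41.3, 40.2, 42.7 and 38.4 CPM in the CUS mice, again without overlap (-0.23, SE 0.05, FDR 0.0415). With 1 mouse left out, Sin3a passed the FDR of 0.05 only without control mouse 3 (FDR 0.0131). Its other FDR values in these fits ran from 0.0522 to 0.142. The estimate for Man2c1os, which overlaps the end of Sin3a by 28417 bp, was 0.10 (FDR 0.537).

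To ask whether an antisense transcript and its partner changed by unequal amounts, the log2 ratio of the pair was tested directly. None of 59 pairs passed an FDR of 0.05 in limma, where the background was also 0% of 643 pairs of antisense genes in the tables. At an unadjusted P below 0.05 there were 8 of the 59, against 13.8% of all pairs, and the smallest FDR was 0.116. In simulated counts with a log2 change of 1, 93.2% of such changes were recovered when all 59 pairs were changed, with 4 false calls among 628 pairs, but 23.5% when 17 pairs of any abundance were changed among 625. Differences as small as those estimated here were not simulated. The median difference was 0.09 for the 59 and 0.05 for all 643. The antisense and partner estimates had the same sign in 39 of 59 pairs (66.1%), and in 58.0% of all pairs.

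The smallest P values belonged to Kcnq1ot1 with Kcnq1 and to Gm26691 with Cxxc4, which are named after their values were seen. Kcnq1 had 9.55, 9.54, 6.69 and 6.84 CPM in the control mice and 7.04, 6.35, 6.30, 5.10 and 5.58 CPM in the CUS mice. Its estimate was -0.43 (FDR 0.0960), that of Kcnq1ot1 0.08, and the ratio differed by 0.49 on the log2 scale (SE 0.13, FDR 0.116). Gm26691 had 103, 102, 93.0 and 98.0 CPM in the control mice and 89.1, 97.3, 84.5, 81.8 and 75.4 CPM in the CUS mice. Its estimate was -0.21, that of Cxxc4 0.17, and the ratio differed by -0.39 (SE 0.11, FDR 0.116). Neither pair passed the threshold.

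**Figure D3:**
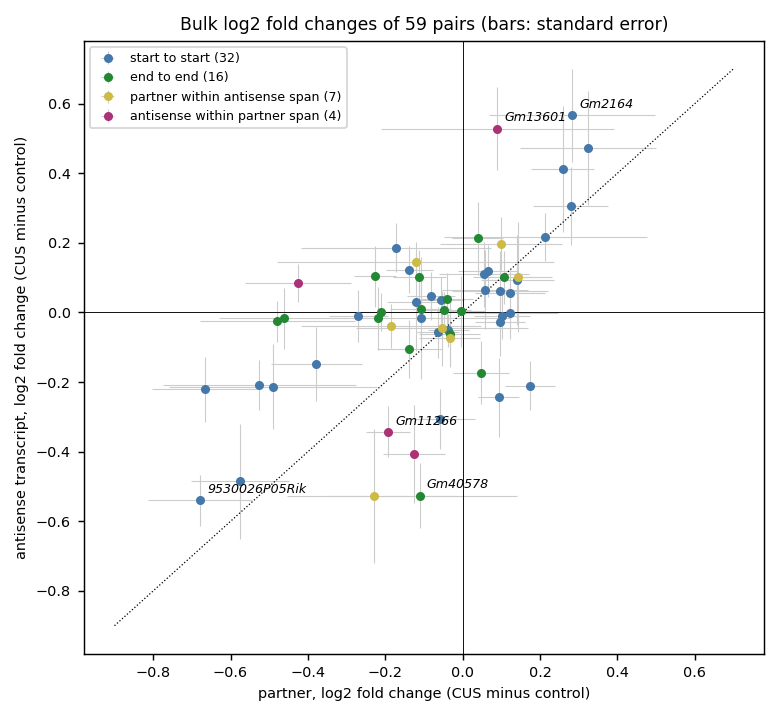
Log2 fold change of CUS over control of the antisense transcript (vertical) against that of its partner (horizontal) for 59 pairs tested in bulk, coloured by arrangement. Bars are standard errors, and the dotted line marks equal change. 9530026P05Rik, with Adamts9, lies near the line in the lower left corner, while Gm40578 and Gm13601 lie off it with wide bars for their partners.

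Within groups, antisense transcripts and partners could also vary together from mouse to mouse. After removal of the group means, 43 of the 59 pairs (72.9%) had a Pearson r above 0, against 61.3% of 643 pairs. The median r was 0.388, and 0.134 over all 643. The 59 were chosen for their counts, whereas the 643 include sparser antisense genes, in which counting noise weakens r. The part of this choice in the difference was not tested. None of the 59 passed an adjusted P of 0.05 in an exact permutation test within groups (two-sided), and none of the 643 did, 0%. The smallest P that this test can give is 0.000347, and after adjustment over 643 pairs a lone pair at that P cannot pass 0.05. The lack of calls therefore does not decide on any single pair. An unadjusted P below 0.05 was found for 9 of the 59, all with r above 0, against 7.93% of all pairs. By arrangement, 27 of the 32 start to start pairs had an r above 0, with a median of 0.505. The median was 0.274 in 16 end to end pairs, -0.107 in 7 pairs with the partner inside and -0.0364 in 4 pairs with the antisense gene inside. The arrangements are those with the main partner. They were not tested against each other, and all pairs share the same 9 libraries. No medians by arrangement over all 643 pairs are set beside them. Partner levels differ widely between pairs, and the part of counting noise in these medians was not tested.

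Gm35161 and Adcy2, an adenylyl cyclase gene, varied together most closely. Gm35161 had 28.4, 21.7, 27.2 and 13.2 CPM in the control mice and 33.1, 29.8, 35.2, 27.5 and 24.5 CPM in the CUS mice, and Adcy2 had 786, 722, 791 and 588 CPM and 895, 865, 896, 845 and 817 CPM. Control mouse 4 was lowest for both. Pearson r was 0.988 (exact permutation P = 0.00104, adjusted P = 0.223) and Spearman rho 0.983 (P = 0.00174, adjusted P = 0.391), and r was 0.987 without the 2 mice farthest from the median.

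A730060N03Rik with Cacng2, which encodes the AMPA receptor auxiliary subunit stargazin, had r = 0.942 (exact permutation P = 0.00799, adjusted P = 0.447) and rho = 0.817 (P = 0.0222, adjusted P = 0.529). A730060N03Rik ranged from 10.2 to 19.3 CPM in the control mice and from 15.7 to 21.5 CPM in the CUS mice, and Cacng2 from 43.7 to 95.9 CPM and from 73.0 to 88.3 CPM. The value of r without the 2 farthest mice was 0.949. For 9430041J12Rik with Ttyh1, an astrocyte membrane protein gene, r was 0.803 (exact permutation P = 0.0066, adjusted P = 0.447) and rho 0.883 (P = 0.00347, adjusted P = 0.391), with r = 0.610 without 2 mice. Of the negative values, the smallest P was that of A930015D03Rik with H2-T24 (r = -0.656, exact permutation P = 0.05, adjusted P = 0.597, rho = -0.600, P = 0.147, adjusted P = 0.855), and this r came to -0.271 without 2 mice. Dlx1as with Metap1d had r = -0.596 (exact permutation P = 0.100, adjusted P = 0.748) and rho = -0.533 (P = 0.166, adjusted P = 0.855), with r = -0.777 without 2 mice. 4930557K07Rik with Zfp384 had r = -0.537 (exact permutation P = 0.163, adjusted P = 0.771) and rho = -0.417 (P = 0.282, adjusted P = 0.855), with r = -0.523 without 2 mice.

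**Figure D4:**
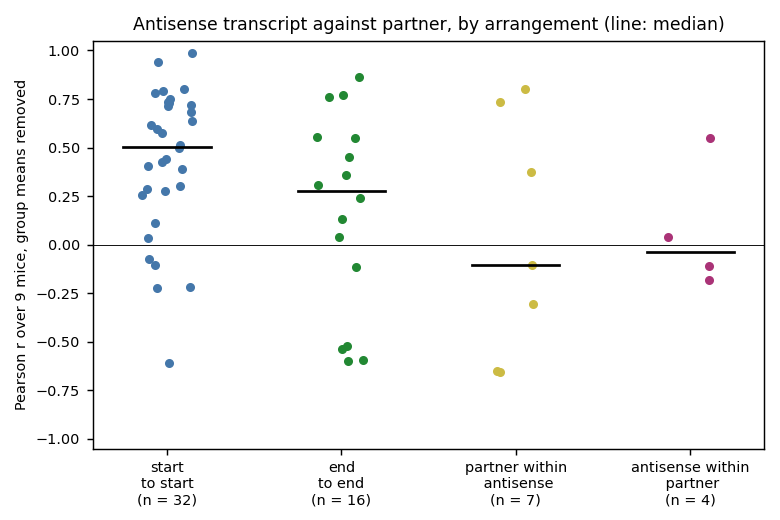
Pearson r between the log2 CPM of an antisense transcript and of its partner over 9 mice, group means removed, by arrangement of the pair. Each point is 1 of 59 pairs and the line is the median, which is 0.505 in the 32 start to start pairs and 0.274 in the 16 end to end pairs.

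Several opposite-strand transcripts with a known history are among the 69, and none of them passed the FDR of 0.05 in bulk. Airn, which silences Igf2r in cis, had 21.7, 25.4, 18.1 and 18.4 CPM in the control mice and 18.3, 21.4, 17.0, 16.0 and 15.5 CPM in the CUS mice (log2 fold change -0.24, FDR 0.238). Dlx6os1, the RNA of the Dlx5 and Dlx6 enhancer region of inhibitory neurons, had 30.2, 49.7, 36.5 and 39.7 CPM in the control mice and 24.7, 42.8, 25.4, 21.4 and 21.5 CPM in the CUS mice. CUS mouse 2 stood inside the control range, and the estimate was -0.53 (SE 0.19, FDR 0.137). Without CUS mouse 2 it was -0.75 and passed the threshold (FDR 0.0151). Emx2os, which shares its start region with the cortical patterning gene Emx2, had an estimate of -0.21 (FDR 0.333), and Dlx1as, which covers the homeobox gene Dlx1, one of 0.01 (FDR 0.962), a value that came to -0.02 without TMM factors.

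In the single-nucleus data, 66 of the 69 transcripts could be tested on UMIs summed per mouse, and none passed an FDR of 0.2 in the edgeR quasi-likelihood test, where 0.006% of 16668 genes did. DESeq2 and the likelihood ratio test also gave none, but the shares of all genes that they called in nuclei are not given here. One of the 66 had an unadjusted P below 0.05, against 7.49% of all genes tested: Gm15494, with a log2 fold change of 0.37 (FDR 0.660). The sign of the estimate was the same in bulk and nuclei for 35 of 66 (53.0%), and for 59.4% of 14586 genes tested in both. Of the 5 transcripts called in bulk, 2 had an estimate of the same sign in nuclei, 9530026P05Rik with -0.15 (SE 0.15) and Gm13601 with 0.19 (SE 0.13). The other 3 had the opposite sign, Gm40578 with 0.07 (SE 0.20), Gm11266 with 0.15 (SE 0.16) and Gm2164 with -0.03 (SE 0.13), and the smallest of the 5 FDR values was 0.707. Whether the change differed between the assays was not tested. The study ran these mice in 2 batches of 2 control and 2 CUS mice each, and the labels do not say which mice were run together. The first principal component of the group-centred levels, with 33.8% of the variance, split the mice into control 1 and 4 with CUS 1 and 2, and control 2 and 3 with CUS 3 and 4. With this split as a batch term, a fit added after seeing the data, again none of the 66 passed an FDR of 0.2 and 0.006% of all genes did. At an unadjusted P below 0.05 there were then 6 of the 66, against 11.6% of all genes, and the smallest FDR was 0.343. The split was taken from the same levels that were then tested, so these P values can be too small. It also goes with depth, at 4699542 to 7642026 UMIs per mouse in the first set and 6977105 to 12477099 in the second.

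The 26698 nuclei kept (1935 to 4235 per mouse) were clustered without any antisense gene and classes were named from marker lists. Any 2 mice shared at most 9 barcodes. Levels are CPM of all UMIs of a class, with the SD over the 8 mice, and are not tested. With at least 30 UMIs over all nuclei required, 68 transcripts could be placed, but for 24 of them the highest class itself held fewer than 30. Of the 68, 14 were at least 2-fold higher in 1 class than in the next, and for 13 of these the class held at least 30 UMIs (for Junos it held 12). In bulk samples, fewer cells of a type and less RNA per cell cannot be told apart, so these levels stand beside the bulk changes as a description.

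Gm40578 was highest in astrocyte-like nuclei, at 155 CPM (164 ± 40.0 by mouse) against 14.6 CPM in oligodendrocyte-like nuclei, the next class. Astrocyte-like nuclei held 252 of its 534 UMIs. Gm11266 was also highest in astrocyte-like nuclei, at 193 CPM (202 ± 65.4 by mouse), which held 314 of its 1119 UMIs. Its host gene Nfib, however, was highest in a small cluster led by Slc47a1, at 665 CPM. 4930488L21Rik reached 323 CPM (336 ± 63.7 by mouse) in astrocyte-like nuclei, where Gnao1 had 984 CPM. 9430041J12Rik with Ttyh1 (150 and 1853 CPM) and Emx2os with Emx2 (147 and 78.6 CPM) were highest in the same class as their partners. In bulk, the summed CPM of the 14 astrocyte markers, all above 0, ran from 2707 to 3192 in the control mice and from 2449 to 2848 in the CUS mice (log2 ratio -0.17, exact permutation P = 0.0952, adjusted P = 0.171). Of the 14, 3 were lower in CUS at the FDR of 0.05, and the part of these values in the falls of Gm40578 and Gm11266 was not tested.

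Other transcripts were highest in other glial classes, which held a part of their UMIs, 157 of 1122 for Gm20687 and 429 of 2481 for Gm4876. Gm20687, whose span holds the zinc finger homeobox gene Zfhx2, was 1 of 4 transcripts highest in oligodendrocyte-like nuclei, at 135 CPM against 31.8 CPM in a cluster led by Otof. Bulk Gm20687 was 28.5, 32.6, 36.3 and 28.7 CPM in the control mice and 28.2, 32.0, 27.4, 30.2 and 32.0 CPM in the CUS mice, which overlap (log2 fold change -0.07, FDR 0.643). The 12 oligodendrocyte markers, all above 0, summed to 390 to 853 CPM in the control mice and 404 to 509 CPM in the CUS mice (log2 ratio -0.54, exact permutation P = 0.127, adjusted P = 0.190), and 2 of the 12 were lower in CUS. Gm4876, whose span holds the LIM domain gene Tes, was highest in oligodendrocyte precursor-like nuclei, at 636 CPM (682 ± 251 by mouse), against 86.5 CPM in astrocyte-like nuclei, while Tes had 34.1 CPM there. Its bulk estimate was -0.05 (FDR 0.848), beside sums of the 10 precursor markers of 1332 to 1597 CPM in control and 1635 to 1778 CPM in CUS mice (log2 ratio 0.26, exact permutation P = 0.0159, adjusted P = 0.0476). The median log2 fold change of these markers was -0.11, with 1 called lower and 1 higher, so for this list the sum and the median differ in sign.

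9530026P05Rik had its highest levels outside the neuronal and macroglial classes. It stood at 714 CPM in a cluster led by Slc6a20a (82 nuclei), 675 CPM in a cluster led by Slc47a1 (59 nuclei) and 398 CPM in endothelial-like nuclei (72 nuclei), against 103 CPM in astrocyte-like nuclei. Those 3 classes are small, and their values by mouse were widely spread. They held 91, 65 and 57 of its 2178 UMIs, so most of its UMIs lay in other classes. Its partner Adamts9 was highest in astrocyte-like nuclei, at 89.6 CPM, and at 31.4 CPM in the cluster led by Slc6a20a. Airn was highest in the same small clusters. In bulk, the 10 endothelial markers, all above 0, summed to 511 to 674 CPM in the control mice and 599.7 to 671 CPM in the CUS mice (exact permutation P = 0.444). The 8 choroid plexus markers summed to 13.1 to 22.0 and 7.75 to 12.5 CPM (exact permutation P = 0.0159, the smallest that this test can give, adjusted P = 0.0476). No class of nuclei was named choroid plexus. Of these 8 markers, 5 could be tested, and 2 were lower in CUS at the FDR of 0.05. The part of both sums in the fall of 9530026P05Rik was not tested.

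Among neurons, Dlx1as was highest in inhibitory neuron-like nuclei, at 217 CPM against 27.0 CPM in the next class, and so was Dlx6os1, at 265 CPM against 133 CPM in striatal projection neuron-like nuclei. Dlx6 had 32.6 CPM in inhibitory neuron-like nuclei. The inhibitory neuron markers summed to 2164 to 2506 CPM in control and 1979 to 2445 CPM in CUS mice (log2 ratio -0.08, exact permutation P = 0.317, adjusted P = 0.408). The median log2 fold change of these 16 markers was 0.055, with 1 called lower and 1 higher, so here too the sum and the median differ in sign. Gm26691 was highest in striatal projection neuron-like nuclei, at 299 CPM, and the striatal markers summed to 966 to 1389 CPM in control and 1475 to 1695 CPM in CUS mice (exact permutation P = 0.0159, adjusted P = 0.0476), while the bulk estimate of Gm26691 was -0.21. The median log2 fold change of the 11 striatal markers tested was -0.88, with 1 called higher, so the sum and the median differ in sign. Their part in that estimate was not tested.

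Both transcripts that rose in bulk were highest in clusters that the marker lists left unnamed. Gm2164 had 183 CPM (181 ± 42.3 by mouse) in a cluster led by Gm19410, with the deep-layer neuron gene Fezf2 among its leading genes, against 71.0 CPM in the next, and Pou3f1 was highest in the same cluster, at 75.5 CPM. Gm13601 had 66.2 CPM (64.4 ± 13.4 by mouse) in a cluster led by Rorb, where Xirp2 had 13.9 CPM. The 17 excitatory neuron markers, all above 0, summed to 3583 to 4789 CPM in the control mice and 4354 to 4887 CPM in the CUS mice (log2 ratio 0.21, exact permutation P = 0.0317, adjusted P = 0.0714). Control mouse 4 was the lowest of all mice for Gm2164, for Gm13601 and for this sum, and control mouse 3 was the highest of the control mice for all of them. Their part in the rises was not tested.

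**Figure D5:**
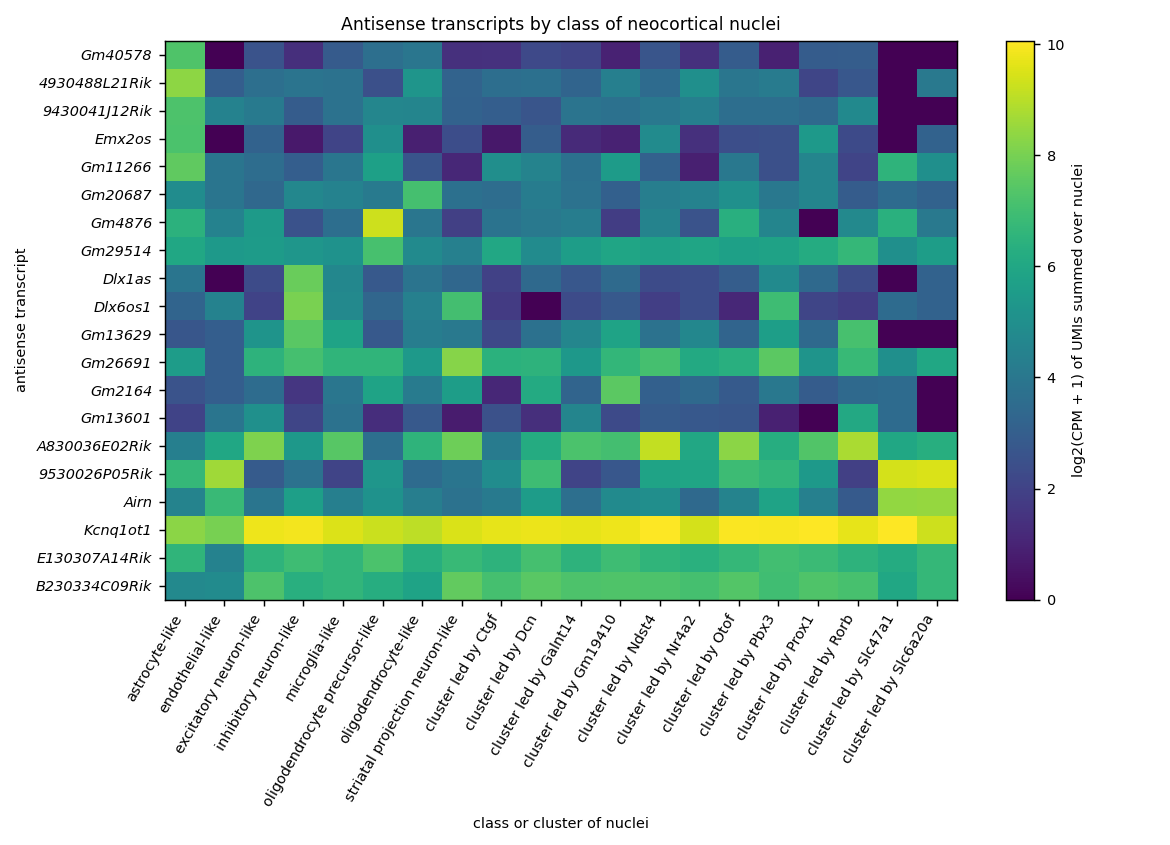
Level of 20 antisense transcripts (rows) in classes and clusters of single neocortical nuclei (columns), as log2(CPM + 1) of UMIs summed over nuclei of 8 mice. Gm40578 stands out in astrocyte-like nuclei, Gm20687 in oligodendrocyte-like nuclei, Gm4876 in oligodendrocyte precursor-like nuclei and Dlx1as in inhibitory neuron-like nuclei, whereas Kcnq1ot1 is high in every column.

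Kcnq1ot1 was present in every class, from 251 to 1068 CPM, and was the most abundant of the 69 in most of them. A830036E02Rik was highest in a cluster led by Ndst4, at 556 CPM, and next in the cluster led by Rorb, at 445 CPM, although it was at 35.1 CPM in bulk. AC124561.1, first in bulk, had 11.1 CPM at most in any class.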

How the data were processed

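The authors extracted nuclear RNA, aligned reads to mm10 with STAR, kept unique reads and deposited raw counts per gene for bulk tissue and UMI counts per gene and nucleus for sNucDrop-seq. The annotation release and the treatment of introns in the bulk counting were not given in the sources used here. The members and lists were chosen with earlier results of these data known. Bulk counts were tested with edgeR 4.0.16 (filterByExpr, TMM, quasi-likelihood test, Benjamini-Hochberg over 18394 genes, FDR 0.05) on R 4.3.3, and log2 ratios of a pair (prior count 2) with limma 3.58.1. Correlations used all 2880 orders of mice within groups, with a smallest P of 0.000347. Alternatives were the likelihood ratio test, DESeq2 1.42.0, no TMM, no filter, a replicate block and leaving out each mouse. Scripts were tested on simulated data: of 59 members changed by a log2 of 1, 98.3% were recovered among 18208 genes, with 10 false calls.

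Nuclei were kept where 600 to 5000 genes were detected and mitochondrial reads made up less than 5%, and 332 to 772 per mouse were then removed for a doublet score above 0.2. The rest were clustered with scanpy 1.11.5 on Python 3.11.15. A class was named where at least 3 of its markers were enriched and 2 stood among its 10 leading genes, a rule set after the clusters were seen. UMIs were summed per mouse and tested with edgeR at an FDR of 0.2. A partner was the protein-coding gene with the longest overlap on the other strand. Named genes were drawn from the 6 highest by CPM and by reads per kb, called members and partners, the 3 pairs with the smallest P for r above and below 0, well known antisense transcripts, and the 3 antisense genes on either side of the count of 300. Further rules were the 3 members highest in each class of nuclei relative to other classes, and the 3 most abundant with starts within 1 kb. Some others are named for their values, such as those far higher in bulk than in nuclei. Samples sharing a replicate number did not deviate together, so the numbers were not used as pairs. Genes sharing sequence with a paralog, an opposite gene or an overlapping gene of the same strand are uncertain where reads could be split. One pair is not reported here.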

Additional observations from a re-analysis of the deposited data

Results flagged for a closer look

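A mouse far from the others of its group was looked for in each of 138 groups of the 69 transcripts, and 9 groups held one, where chance gives about 5%. B230334C09Rik had its lowest CUS value, 98.6 CPM, apart from the other CUS mice, which lay close together. For Dlx6os1 the highest CUS mouse, at 42.8 CPM, stood apart from the rest of its group, and for Gm15494 the highest CUS mouse did, at 12.9 CPM. The lowest control mouse was far from the others for 1600020E01Rik, at 20.4 CPM, and for Gm16083, at 18.8 CPM. Among the partners, Adamts9 had 1 CUS mouse at 18.1 CPM, above the other CUS mice, and Metap1d had 1 control mouse at 25.1 CPM, below the other control mice. The excitatory neuron marker sum was 4354 CPM in the lowest CUS mouse, below the other 4.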

How the results depend on the processing

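Of the 69 transcripts, 5 passed the FDR of 0.05 in the main analysis, 6 with the likelihood ratio test, DESeq2 or no TMM factors, and between 2 and 9 when 1 mouse was left out. With a replicate block 3 passed (9530026P05Rik, Gm13601 and Gm40578), but same-numbered mice did not deviate together (correlations of 0.037, 0.146, 0.025 and 0.087 in bulk and 0.085, -0.200, 0.249 and -0.216 in nuclei), so the numbers do not show pairing. Of the partners, 5 passed in the main analysis, 10 with DESeq2, 0 with the replicate block, and between 0 and 13 when 1 mouse was left out. Of all genes, 3.29% passed in the main analysis, 7.68% with DESeq2, 1.29% with the replicate block, and between 0.714% and 8.1% when 1 mouse was left out. No ratio of a pair passed with any mouse left out, and in nuclei between 0 and 1 transcript did (0 with the batch term taken from the same levels). With 1 mouse left out, the estimate of Tnfaip2 ran from -0.25 to 0.11, that of Xirp2 from -0.076 to 0.24 and that of Dlx1as from -0.081 to 0.060. Without TMM factors the Dlx1as estimate was -0.015 and the microglia marker log2 ratio -0.00133. The cause of these shifts was not tested. The directions of the 5 called transcripts held in every alternative. Low mean counts, of 28.6 reads for Tnfaip2, 17.4 for Xirp2 and 35.6 for Pou3f1, limit what can be detected there.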
